A study of Mus musculus with 40 samples.

Results

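Gprc5b encodes a receptor with 7 membrane spans of the GPRC5 group. The gene was chosen by measured values of these same libraries: its normalised counts over the 8 groups, its differences within each genotype and its correlation with other genes across the wild-type (WT) mice. It is 1 of 40239 genes present in both count tables after ribosomal RNA genes were removed, of which 12942 were tested. Because those values selected the gene, its levels, fold changes and correlations are given here as a description without a test.

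GPRC5 proteins are orphan receptors of class C, first found as genes induced by retinoic acid. In mouse adipocytes GPRC5B has been placed in lipid rafts with caveolin-1, where it binds the kinase Fyn and acts on NF-κB signalling and on weight gain during fat feeding. PPARγ, the receptor that pioglitazone (Pio) activates, binds DNA as a pair with a retinoid X receptor.

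The 40 livers came from male mice of the C57BL6/J strain aged 5 months. WT mice and mice lacking PPARγ in hepatocytes (KO) each had 4 groups of 5: control diet, control diet with Pio, high-fat diet (HFD) and HFD with Pio. Feeding lasted 3 months and Pio made up 0.01% of the diet. Deletion used Cre under the albumin promoter with floxed Pparg, and the controls were WT C57BL6/J mice, not floxed littermates. WT counts were deposited in 1 table and KO counts in another, which leaves no way to separate genotype from table, and WT was never tested against KO directly. Pio comparisons were made within each genotype, and the difference between those Pio effects (KO minus WT) was taken from 1 model. Comparisons within 1 genotype share groups, and each KO minus WT difference uses the same mice as the effects it is made from.

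Depth over the joined genes was 15788242 to 49857017 counts in WT (median 23083120) and 21542958 to 28334251 in KO (median 24703923). The sum of 8 hepatocyte markers, led by Alb, averaged 103393 in normalised counts (CPM) for WT mice on control diet, 101395 with Pio, 132579 on HFD and 118507 with HFD and Pio. In KO the means were 113560, 104493, 103185 and 112286 CPM in the same order. KO Pio mouse 13 stood apart at 36179 CPM, against 103527 to 136824 in the other KO Pio mice. Its pancreatic acinar marker sum was 141 CPM against 6.57 to 11.5, its adipocyte sum 42.2 against 8.30 to 14.7, and its share of ribosomal RNA counts 0.0617% against 0.458% to 0.727%. Its removal took the number of genes called between Pio and control in KO from 1166 to 66 (46 higher and 20 lower, 0.512% of 12895). The same removal raised the WT Pio calls from 506 to 2007 (15.6%) on control diet and from 140 to 1501 (11.6%) on HFD. With KO mice fitted on their own, edgeR called 0 of 12942 genes between Pio and control (2970 at unadjusted p < 0.05), against 1427 by DESeq2 and 1216 by limma with all mice, so every KO call on control diet given below is lost in that fit. The fold changes stayed about as large there, such as 2.52 for Gal3st1 and 1.25 for Rara.

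Other single mice also moved the number of genes called, so a count of list members in such a fit is read against the share of all genes called in it. Between Pio and control in KO, edgeR called 1.66%, 2.99%, 2.57%, 1.71% and 4.77% of genes without mice 1 to 5, and 17.6%, 16.8%, 17.9% and 16.0% without mice 11, 12, 14 and 15. In WT on control diet it called 313 genes without mouse 842 and 203 without mouse 845. In WT on HFD it called 78 without mouse 828, 62 without 829, 54 without 836, 39 without 837 and 65 without 839. KO minus WT on control diet it called 537 without WT mouse 845, 560, 632 and 622 without KO mice 1, 3 and 4, and 1976, 1609, 1923 and 1769 without KO mice 11, 12, 14 and 15. On HFD the KO minus WT calls were 12, but 21 (0.163%) without KO mouse 13 and 8 without WT mouse 837. In KO on HFD 0 to 5 genes were called. Other counts of all 12942 genes follow for Pio in WT (control diet, then HFD) and in KO (control diet, then HFD). By edgeR 2314, 2020, 3577 and 134 genes had unadjusted p < 0.05. In the same order limma called 23.9%, 8.4%, 9.4% and 0%, and DESeq2 6.28%, 2.78%, 11% and 0.0618%. KO minus WT on control diet limma called 15.4% and DESeq2 10.8%.

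Some other libraries also stood out. WT HFD mouse 829 had 0.0647% of ribosomal RNA counts against 0.163% to 0.535% in its group, the lowest hepatocyte sum of the group (103565 CPM) and a cholangiocyte sum of 89.5 CPM against 45.2 to 56.5. KO HFD mouse 10 had an acinar sum of 669 CPM against 5.82 to 28.5. KO HFD mouse 9 had a cholangiocyte sum of 116 CPM against 44.4 to 52.9 and a Kupffer sum of 686 CPM against 301 to 365. It also had the lowest hepatocyte sum of its group (79619 CPM).

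The targeted gene, Pparg, was counted in every sample. The count spans all exons and the deleted exons were not counted separately, so it does not check the deletion. Pparg stood at 9.53, 10.4, 10.2, 5.79 and 7.08 CPM in WT control and at 10.8, 12.5, 12.5, 11.9 and 14.2 CPM in WT Pio. WT HFD mice had 10.9, 12.6, 12.3, 9.01 and 11.6 CPM, and WT HFD-Pio mice had 11.1, 12.6, 9.72, 11.3 and 7.52 CPM. Every WT Pio mouse was above the highest WT control mouse, while the HFD groups overlapped. In KO the values were 7.82, 6.43, 3.67, 8.97 and 9.90 CPM on control diet and 3.01, 6.57, 4.72, 4.30 and 4.37 CPM with Pio. KO HFD mice had 7.19, 7.08, 8.53, 3.50 and 5.15 CPM, and KO HFD-Pio mice had 5.28, 9.69, 6.80, 6.10 and 8.46 CPM. The KO groups overlapped each other and WT control. The highest KO values, 9.90 CPM on control diet and 9.69 CPM with HFD and Pio, lay within the WT control, HFD and HFD-Pio ranges.

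Gprc5b was low in WT livers without Pio: 2.20, 6.52, 1.45, 0.748 and 1.75 CPM on control diet (mice 831 to 835) and 0.871, 1.84, 0.679, 2.38 and 0.840 CPM on HFD (mice 826 to 830). With Pio it reached 39.7, 47.5, 23.9, 34.8 and 61.6 CPM on control diet (mice 841 to 845). On HFD with Pio it reached 39.4, 42.6, 20.6, 31.9 and 22.1 CPM (mice 836 to 840). All 10 WT mice given Pio lay above all 10 WT mice without it, and the lowest of the former was 3.16 times the highest of the latter, mouse 832. Mouse 832 alone raised the WT control mean from 1.54 ± 0.609 to 2.53 ± 2.29 CPM (mean ± SD).

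**Figure D1:**
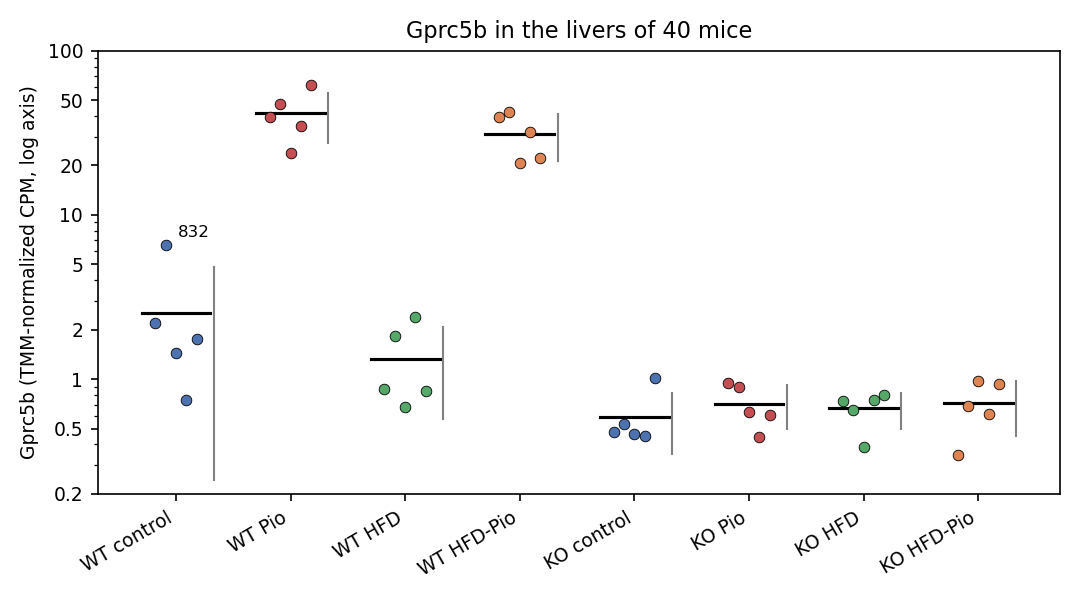
Gprc5b in each of the 40 livers. Each point is 1 mouse, the black line is the group mean and the grey bar is ±1 SD of the 5 mice. The axis is logarithmic. WT mouse 832 is labelled.

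In KO livers Gprc5b was 0.476, 0.533, 0.464, 0.453 and 1.01 CPM on control diet (mice 1 to 5) and 0.949, 0.898, 0.632, 0.447 and 0.608 CPM with Pio (mice 11 to 15). On HFD it was 0.739, 0.644, 0.388, 0.748 and 0.796 CPM (mice 6 to 10). With HFD and Pio it was 0.343, 0.687, 0.972, 0.610 and 0.940 CPM (mice 16 to 20). The 4 KO groups overlapped fully, with a median of 0.638 CPM over the 20 mice. These values rest on 10 to 29 counts per mouse, against 324 to 2109 counts in WT mice with Pio and 10 to 175 in WT mice without it.

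By group mean the order was WT Pio (41.5 ± 14.1 CPM), WT HFD-Pio (31.3 ± 9.92), WT control (2.53 ± 2.29) and WT HFD (1.32 ± 0.748), followed by KO HFD-Pio (0.71 ± 0.258), KO Pio (0.707 ± 0.211), KO HFD (0.663 ± 0.163) and KO control (0.587 ± 0.239). The only neighbouring groups whose mice did not overlap were WT HFD-Pio and WT control, 12.4-fold apart. The other neighbouring means differed by 1.00-fold to 1.92-fold, and the WT to KO part of this order also crosses the tables. Per kilobase of exon, Gprc5b stood above 74.7% of the tested genes with a known exon length in WT Pio and above 69.1% in WT HFD-Pio. The share was 15.4% in WT control and 8.68% in WT HFD, and it lay between 2.29% and 3.23% in the KO groups.

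As log2 fold changes (± standard error), Gprc5b rose with Pio in WT by 4.03 ± 0.40 on control diet and by 4.55 ± 0.42 on HFD. These were the 7th and 5th highest of the 12942 genes. In KO the Pio differences were 0.25 ± 0.45 on control diet and 0.09 ± 0.45 on HFD. KO minus WT, the Pio effect on Gprc5b differed by -3.78 ± 0.59 on control diet and by -4.46 ± 0.61 on HFD, the 15th and 10th lowest values. HFD against control diet gave -0.92 ± 0.40 in WT and 0.15 ± 0.46 in KO. Within Pio-fed mice, HFD against control diet gave -0.40 ± 0.35 in WT and -0.00071 ± 0.42 in KO. The Pio effect on HFD minus that on control diet was 0.52 ± 0.53 in WT and -0.15 ± 0.64 in KO.

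Single mice moved some of these Gprc5b values. Leaving out 1 mouse at a time, the WT Pio difference on control diet ran from 3.78 (without 834) to 4.76 (without 832), and on HFD from 4.42 to 4.88. The WT diet difference ran from -1.26 (without 829) to -0.20 (without 832), so most of it rested on mouse 832. The diet difference of the WT Pio effect ran from -0.20 (without 832) to 0.85 (without 829). The KO Pio difference on control diet rose to 0.55 without KO mouse 5. KO minus WT on control diet ran from -4.52 (without 832) to -3.48 (without KO mouse 5), and on HFD from -4.79 to -4.30.

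Of the other 3 genes of the family, Gprc5a had 2 to 45 counts per mouse (0.0659 to 1.30 CPM) and Gprc5d had 0 to 3 counts, both too low to be tested. Gprc5c was the only other tested member. Per kilobase of exon it averaged 18.6 CPM in WT control and 12.7 in WT Pio, where Gprc5b averaged 0.547 and 8.96. Gprc5c stood at 100, 99.3, 76.7, 110 and 101 CPM in WT control and at 81.9, 69.9, 71.9, 69.7 and 40.3 CPM in WT Pio, where 4 of 5 Pio mice were below every control mouse. WT HFD mice had 68.1, 74.5, 87.9, 98.8 and 109 CPM and WT HFD-Pio mice had 87.2, 89.6, 91.8, 87.5 and 99.4 CPM, and these groups overlapped.

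Gprc5c was lower with Pio in WT on control diet by edgeR (log2 fold change -0.55 ± 0.14, adjusted p = 0.0212), in a comparison where 506 of 12942 genes (3.91%) were called. The call was lost without WT mouse 834 or mouse 845 (-0.41). On HFD, where 1.08% of genes were called, Gprc5c changed by 0.06 in WT (edgeR, adjusted p = 0.886). In KO it changed by 0.0073 on control diet (edgeR, adjusted p = 0.979, 9.01% of genes called) and by -0.028 on HFD (edgeR, adjusted p = 1.0, 0.0155% called). KO minus WT, its Pio effect differed by 0.55 on control diet (edgeR, adjusted p = 0.0719, 7.87% called) and by -0.085 on HFD (edgeR, adjusted p = 0.980, 0.0927% called). Without WT mouse 833, WT mouse 841 or KO mouse 12 the control-diet difference of Gprc5c was called, at 0.64, 0.64 and 0.62. The diet difference of its WT Pio effect was 0.60 (edgeR, adjusted p = 0.180) and was called at 0.61 without KO mouse 13. DESeq2 (0.56) and limma (0.50) called the KO minus WT difference of Gprc5c on control diet, and limma (0.57) its WT diet difference.

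Gprc5b lies on chromosome 7 (118972047 to 118995211, minus strand). Its annotation overlaps that of Iqck on the opposite strand from 118972047 to 118972652, at the 3′ ends of both genes. The study counted only reads that aligned uniquely and without ambiguity, and does not state whether counting used the strand. It is therefore not known whether reads from the shared bases were left out or assigned by strand. Iqck itself had 13, 67, 3 and 56 counts summed over the 5 mice in WT control, Pio, HFD and HFD-Pio, which is 3.87%, 1.25%, 2.48% and 1.15% of the Gprc5b counts. In KO the sums were 5, 8, 6 and 4 counts. Iqck was below the level needed for testing.

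The 10 nearest tested genes, 5 on each side, lie 115793 to 611815 bases away: Tmc7, Gde1, Ccp110, 9030624J02Rik and Knop1 on the Iqck side, and Pdilt, Gm26967, Acsm5, Acsm2 and Acsm1 on the other. In WT, edgeR called 0 of 10 with Pio on control diet (3.91% of all genes called, 1 of 10 at unadjusted p < 0.05, DESeq2 0). There limma called 2 of 10 and 23.9% of all genes. Their log2 fold changes ran from -1.02 (Acsm2) to 0.50 (Gm26967). On HFD in WT, edgeR also called 0 of 10 (1.08% of all genes called, 1 at unadjusted p < 0.05, DESeq2 0 and limma 0), with values from -1.15 (Acsm2) to 0.25 (Gde1). In KO on control diet 2 of 10 were lower by edgeR (9.01% of all genes called), Ccp110 (-0.76 ± 0.23, adjusted p = 0.0345) and Gm26967 (-1.30 ± 0.42, adjusted p = 0.0437). Without KO mouse 13 these were -0.49 and -0.97, and the count was 0. It was also 0 without KO mouse 1, 2, 3 or 4, 1 without KO mouse 12, and 4 without KO mouse 11 or 14, while the share of all genes called was 1.66% to 2.99% without mice 1 to 4 and 16.8% to 17.9% without mice 11, 12 and 14.

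On HFD in KO, edgeR called 0 of the 10 neighbours (0.0155% of all genes called, 0 at unadjusted p < 0.05, DESeq2 0 and limma 0). KO minus WT on control diet, 1 of 10 was called (7.87% of all genes), Gm26967 (-1.80, adjusted p = 0.0485 by edgeR), and this call held in 9 of the 40 fits that left out 1 mouse.

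The pooled WT correlations were computed over the 12123 genes that averaged 1 CPM or more in the 20 WT mice. They come from the same libraries and normalisation as Gprc5b itself, and the WT mice form a pair of separate ranges, with and without Pio. Over all 20 mice, 9 genes reached a Pearson r of at least 0.9 and 59 at least 0.8, 14 genes were at or below -0.8, and the median was -0.0189. The 10 genes most like Gprc5b were Cidec (r = 0.979), Cd36 (0.967), Osbpl3 (0.948), Kbtbd11 (0.941), Sdcbp2 (0.928), Gal3st1 (0.928), Cidea (0.914), B430212C06Rik (0.908), Mogat1 (0.903) and Bhlhb9 (0.896). The lowest correlations were those of Serpine2 (-0.886) and Avpr1a (-0.881). Cidec, Cd36 and Mogat1 were named by the study on these data. Of the other genes it named, Cfd had r = 0.840, Plin4 0.836, Fabp4 0.736 and Cav1 0.554.

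Within the 10 WT mice given Pio, r was 0.840 for Cidec, 0.820 for Cd36 and 0.909 for Osbpl3. Within the 10 WT mice without Pio it was 0.861, 0.765 and 0.663 for the same genes. Sdcbp2 had 0.950 with Pio and 0.544 without it, and Kbtbd11 had 0.435 and 0.476. Cidea had 0.761 with Pio and -0.492 without it. After each group mean was taken away from its mice, Cidec still had r = 0.921, Osbpl3 0.812, Cd36 0.802 and Serpine2 -0.825, while Gal3st1 fell to 0.125 and Cidea to 0.135. Ranked on these deviations, only Cidec was shared with the 10 genes named above. Ranked by Spearman correlation, 4 of the 10 were shared. For Cidec, r over 20 mice stayed between 0.977 and 0.983 when any 1 mouse was left out.

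**Figure D2:**
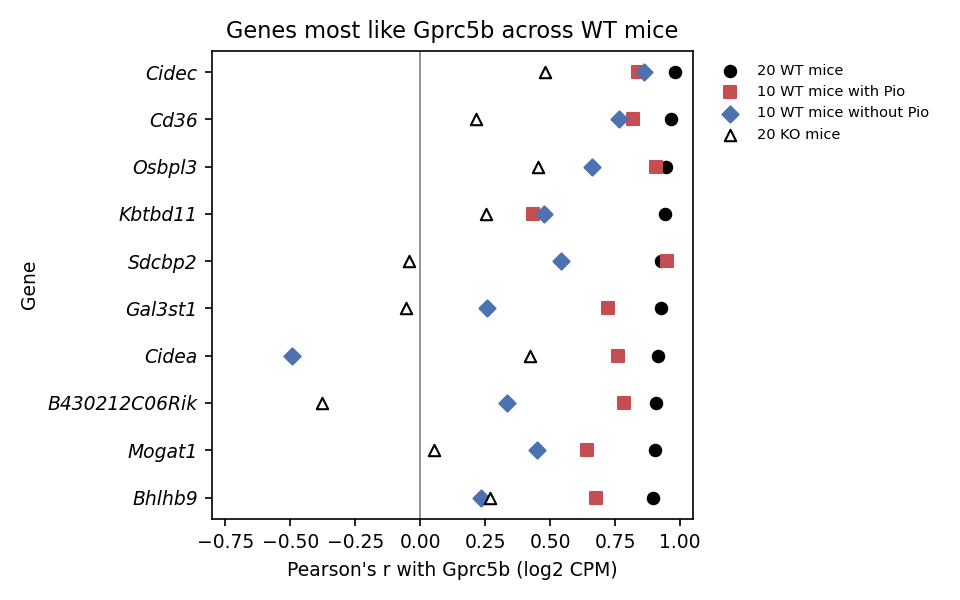
Pearson r between Gprc5b and each of the 10 genes most like it, in the 20 WT mice, the 10 WT mice with Pio, the 10 WT mice without Pio and the 20 KO mice. The genes were chosen on the 20 WT mice, and the KO values of Cidea, Sdcbp2, B430212C06Rik and Mogat1 rest on at most 11 counts per mouse.

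Cidec stood at 8.61, 44.3, 9.43, 6.71 and 7.77 CPM in WT control and at 88.5, 101, 57.0, 87.2 and 119 CPM in WT Pio. WT HFD mice had 7.65, 18.6, 7.81, 16.2 and 8.52 CPM of Cidec, and WT HFD-Pio mice had 112, 125, 52.4, 96.4 and 81.9 CPM. All WT mice with Pio were above all WT mice without it, and mouse 832 was again the highest of the latter. In KO, Cidec lay between 1.94 and 6.68 CPM in all 20 mice.

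**Figure D3:**
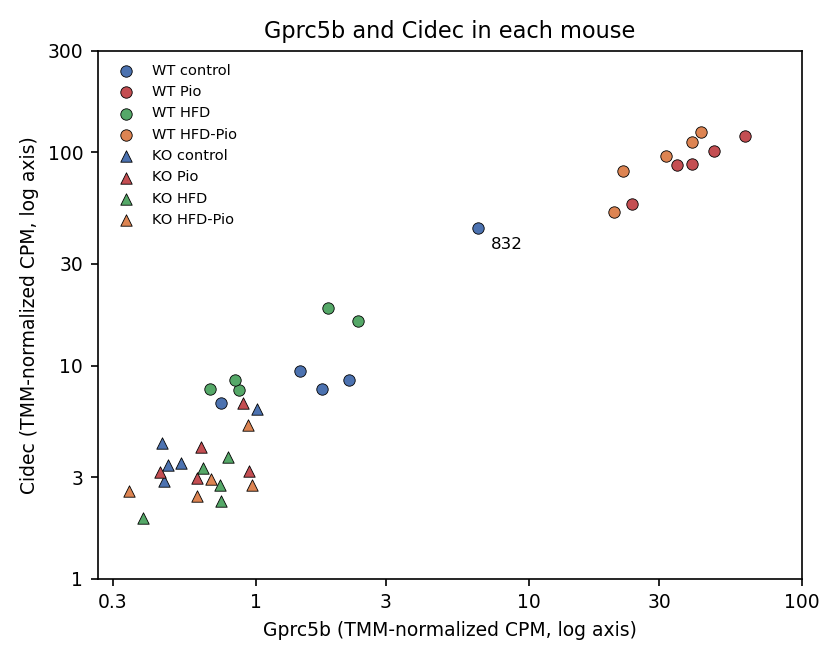
Gprc5b against Cidec in each of the 40 livers, on logarithmic axes. Circles are WT mice and triangles are KO mice. WT mouse 832 is labelled.

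Cd36 stood at 45.1, 73.4, 31.0, 21.7 and 33.2 CPM in WT control and at 135, 123, 115, 134 and 196 CPM in WT Pio, without overlap. Osbpl3 stood at 1.47, 12.2, 2.12, 1.08 and 2.30 CPM in WT control and at 24.9, 25.2, 14.2, 18.9 and 29.9 CPM in WT Pio. In WT control mouse 832 was the highest for Gprc5b, Cidec, Cd36 and Osbpl3 alike. Its stellate marker sum was 502 CPM against 186 to 212 in the other 4 mice, its cholangiocyte sum 108 against 34.6 to 51.1, and its hepatocyte sum 77801, the lowest of the group. In KO control mouse 5 was the highest for Gprc5b, Cidec (6.27 CPM), Cd36 (79.6 against 21.8 to 31.6) and Osbpl3 (8.22 against 1.13 to 1.22). Its stellate sum (354 CPM against 260 to 286) and cholangiocyte sum (65.5 against 32.4 to 50.5) were also the highest of the group, and its hepatocyte sum was 113106 CPM. KO HFD mouse 9 did not follow these: it was the highest of its group for Cd36 (54.1 CPM) and Osbpl3 (3.38) but not for Gprc5b (0.748) or Cidec (2.32).

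Serpine2, the gene with the lowest r, ran the other way in WT. It stood at 8.26, 7.60, 13.6, 27.6 and 14.9 CPM in WT control and at 5.29, 3.71, 5.99, 6.31 and 3.72 CPM in WT Pio, where all 5 Pio mice were below all control mice. Its r was -0.755 within the 10 WT mice with Pio and -0.861 within the 10 without it. In KO, Serpine2 stood at 33.8, 28.7, 22.6, 32.0 and 11.9 CPM on control diet. With Pio it stood at 18.5, 6.03, 9.56, 19.6 and 16.1 CPM. These groups overlapped only through control mouse 5 (11.9 CPM), and every other control mouse was above every Pio mouse. KO HFD mice had 36.2, 29.4, 28.4, 14.1 and 33.4 CPM of Serpine2, and KO HFD-Pio mice had 16.0, 24.9, 26.8, 27.8 and 21.8 CPM. Those groups overlapped only through KO HFD mouse 9 (14.1 CPM), so lower values with Pio were not confined to WT.

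With Pio in WT, 10 of the 10 most like genes were higher on control diet (3.91% of all genes called) and 10 of 10 on HFD (1.08%), which follows from how they were chosen. Their median log2 fold changes were 2.62 and 2.72. The largest was that of Cidea, 7.89 on control diet and 6.10 on HFD. Mouse 832 weighed on some of these: the control-diet value of Cidec was 2.56 with it and 3.48 without it, and that of Osbpl3 was 2.56 and 3.71. On HFD the Osbpl3 call in WT was lost without WT mouse 837 (2.37). KO minus WT, the Pio effect was lower for 8 of the 10 on control diet (7.87% of genes called) and for 3 of 10 on HFD (0.0927%), values that also use the WT mice that chose the genes. Sdcbp2, B430212C06Rik and Mogat1, 3 of the 8, had at most 11 counts in any KO mouse, with or without Pio. Their KO part rests on these few counts, and nothing is read from it.

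The KO mice took no part in choosing these genes, but 4 of the 10 had almost no counts in KO mice with or without Pio. Cidea had 0 to 2 counts per KO mouse, Sdcbp2 0 to 6, B430212C06Rik 0 to 9 and Mogat1 0 to 11. Their KO values rest on these few counts, so nothing is read from their lack of a call. In KO, edgeR called 1 of the 10 most like genes with Pio on control diet (9.01% of all genes called), Gal3st1 (log2 fold change 2.49 ± 0.49, adjusted p = 0.00832). That call rested on KO mouse 13, at 9.82 CPM against 0.79 to 0.95 in the other 4 mice, and the value was 0.92 without it. The count was 0 without KO mouse 13 and 2 without KO mouse 11 or 14. Their median log2 fold change in KO was -0.02 on control diet. On HFD in KO, edgeR called 0 of 10 (0.0155% of all genes called, 0 at unadjusted p < 0.05, DESeq2 0 and limma 0), with a median of -0.10.

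Gprc5b was chosen on its counts in all 8 groups, KO included, so its KO correlations are a description without a test. Across the 20 KO mice, the correlation of Gprc5b with Cidec was r = 0.482 (rho = 0.350). It was 0.333 without the pair of mice farthest out (KO HFD-Pio mouse 16 and KO HFD mouse 8) and 0.489 without mouse 13. On deviations from group means it was 0.624. For Osbpl3 it was r = 0.452 (rho = 0.170), 0.467 without that pair and 0.456 without mouse 13, or 0.530 on deviations. KO control mouse 5, the highest of the 20 KO mice for Gprc5b (1.01 CPM) and Osbpl3 (8.22 CPM), stayed in all of these values. No correlation was computed without it, so the r of Osbpl3 is not shown to be stable. No test of these correlations is read, with or without mouse 13. KO values of Gprc5b vary little and rest on few counts, as do those of Cidea (r = 0.425), Sdcbp2 (-0.0442), B430212C06Rik (-0.379) and Mogat1 (0.0528), so nothing is read from these. The other 4 genes ran from r = -0.0532 (Gal3st1) to 0.269 (Bhlhb9), and Kbtbd11 went from 0.255 to 0.433 without mouse 13.

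PPARγ binds as a pair with retinoid X receptors, so 7 receptor genes were followed (Pparg, Rxra, Rxrb, Rxrg, Rara, Rarb and Rarg). In WT, edgeR called 0 of 7 with Pio on control diet (3.91% of all genes called, 1 at unadjusted p < 0.05, DESeq2 0). There limma called 2 of 7 and 23.9% of all genes. On HFD in WT, edgeR called 0 of 7 (1.08%, 1 at unadjusted p < 0.05, DESeq2 0 and limma 0). Pparg itself changed by 0.53 on control diet (edgeR, adjusted p = 0.199, and 0.855 with a call by limma) and by -0.11 on HFD (edgeR, adjusted p = 0.860). KO minus WT, the Pio effect on Pparg differed by -1.21 ± 0.32 on control diet (edgeR, adjusted p = 0.0219), and 3 of 7 receptors were called (7.87% of all genes). In KO on control diet Pparg changed by -0.68 (edgeR, adjusted p = 0.0558), and was called by DESeq2 (-0.67), by limma (-0.76) and by edgeR without KO mouse 3 (-0.84), 9 (-0.67) or 12 (-0.82). There 2 of 7 were higher by edgeR (9.01% of all genes called), Rara (1.22 ± 0.31, adjusted p = 0.0199) and Rarg (1.13 ± 0.35, adjusted p = 0.0390). Without KO mouse 13, which had 140 CPM of Rara against 23.2 to 38.7 in the other KO Pio mice, these fell to 0.47 and 0.19 and the count to 0. It was also 0 without KO mouse 1, 1 without KO mouse 2, 4 or 5 (1.66% to 4.77% of all genes called in these fits), and 4 without KO mouse 11 or 12 (17.6% and 16.8%). The Rarg call was lost without any 1 of KO mice 1 to 5 (1.11 without KO mouse 3). In WT on control diet 1 of 7 was called without KO mouse 13. The other receptors called for KO minus WT, named after their values were seen, were Rara (1.46, adjusted p = 0.0352 by edgeR) and Rxrb (0.96, adjusted p = 0.0458 by edgeR), at 0.70 and 0.40 without KO mouse 13. The Rxrb call held in 20 of the 40 fits that left out 1 mouse. That count fell from 3 to 1 without the filter on low counts, and without WT mouse 831 or 843 or KO mouse 1, 2, 3 or 13. On HFD in KO, edgeR called 0 of 7 (0.0155% of all genes called, 0 at unadjusted p < 0.05, DESeq2 0 and limma 0).

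Of 22 PPARG target genes from earlier work, 19 were tested. This list and the retinoid, raft and NF-κB lists below were chosen with earlier results of these data known. A count of their members called is therefore a description. In WT on control diet 9 of 19 were higher with Pio by edgeR (3.91% of all genes called): Cav1, Cd36, Cfd, Cidea, Cidec, Fabp4, Lpl, Mogat1 and Plin4. Of these, 7 (all but Cidea and Lpl) had been named by the study on these data and are not independent. The median log2 fold change of the list was 1.03 against -0.02 over all tested genes. Cidea, Cidec, Cd36 and Mogat1 are also among the 10 genes chosen by likeness to Gprc5b in WT, so their part of the count is a description. Of the rest, Cfd (6.88 ± 0.87, adjusted p = 2.43e-06) and Fabp4 (3.27 ± 0.61, adjusted p = 0.00121) had the largest values by edgeR. Leaving out 1 mouse, the count ran from 7 to 14, the latter without KO mouse 13, when 15.6% of all genes were called.

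On HFD in WT 6 of the 19 targets were higher with Pio by edgeR (1.08% of all genes called): Cd36, Cfd, Cidea, Cidec, Mogat1 and Plin4. All but Cidea had been named by the study on these data. In KO on control diet 3 of 19 were higher by edgeR (9.01%), Lipe, Pnpla2 and Slc27a1, named after their values were seen. That count was 0 without KO mouse 13 and 0 without any 1 of KO control mice 1 to 5, fits in which 0.512% to 4.77% of all genes were called. On HFD in KO, edgeR called 0 of 19 (0.0155%, 1 at unadjusted p < 0.05, DESeq2 0 and limma 0). KO minus WT, the Pio effect was lower for 8 of 19 on control diet (7.87%) and for 2 of 19, Cfd and Cidec, on HFD (0.0927%). Of these, 7 of the 8 and 2 of the 2 had been named by the study on these data and are not independent. The KO minus WT values of the genes chosen by likeness use the same WT mice. Mogat1, 1 of the 8, had at most 11 counts in any KO mouse, so nothing is read from its part, and Cfd had 0 to 7 counts per KO HFD-Pio mouse.

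Retinoid response genes were looked at because the receptor family was found through retinoic acid. Of 12 such genes 9 were tested, and in WT on control diet edgeR called 1 of 9 (3.91% of all genes called), Rarres1, which rose by 1.35 ± 0.37 (adjusted p = 0.0319). The call was lost without any 1 of WT mice 831, 832, 834, 841, 843, 844 and 845. On HFD in WT, edgeR called 0 of 9 (1.08% of all genes called, 2 at unadjusted p < 0.05, DESeq2 0 and limma 0). In KO on control diet 1 of 9 was called (9.01% of all genes), Rarres2, which fell by 0.65 ± 0.20 (edgeR, adjusted p = 0.0388), or by 0.43 without KO mouse 13. That call was lost without KO mouse 13 and without any 1 of KO mice 1 to 5. The KO count of the list was 4 without KO mouse 11 or 12 and 2 without KO mouse 14 or 15 (16.0% to 17.9% of all genes called), and the WT count was 2 without KO mouse 13 (15.6% of all genes called). On HFD in KO, edgeR called 0 of 9 (0.0155% of all genes called, 1 at unadjusted p < 0.05, DESeq2 0 and limma 0). KO minus WT on control diet, 1 of 9 was called (7.87% of all genes), Rarres2 (-1.21 ± 0.28, adjusted p = 0.00990 by edgeR), and 2 without WT mouse 841 or KO mouse 11, 12, 14 or 15. The list medians were -0.07 in WT and 0.55 in KO on control diet, against -0.02 and 0.03 over all genes. On HFD they were -0.19 in WT and -0.23 in KO. Among Pio-fed KO mice, HFD against control diet gave a list median of -0.54. The KO median on control diet includes KO mouse 13, and it was not computed without that mouse.

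Of 14 genes of lipid rafts, caveolae and Fyn, all tested, 3 were higher with Pio in WT on control diet by edgeR (3.91% of all genes called). They were Cav1 (1.36 ± 0.35, adjusted p = 0.0221), Cavin2 (0.93 ± 0.23, adjusted p = 0.0164) and Flot2 (0.52 ± 0.14, adjusted p = 0.0314). Cav1 had been named by the study on these data. The count fell to 1 without WT mouse 831, 842 or 845. The Cav1 call was lost without WT mouse 831, 833, 841 or 844, that of Cavin2 without 831, 842 or 845, and that of Flot2 without 832, 834, 835, 842 or 845. Fyn itself was not called with Pio in WT, at -0.11 on control diet (edgeR, adjusted p = 0.794) and -0.05 on HFD (edgeR, adjusted p = 0.907). On HFD in WT, edgeR called 0 of 14 (1.08% of all genes called, 3 at unadjusted p < 0.05, DESeq2 0 and limma 0), and 1 without KO mouse 13 (11.6%). In KO on control diet 1 of 14 was called by edgeR (9.01% of all genes), Flot1 (0.91 ± 0.28, adjusted p = 0.0363), which was 0.25 without KO mouse 13. The KO count was 0 without KO mouse 13 or any 1 of KO mice 1 to 5 (0.512% to 4.77% of all genes called), 3 without KO mouse 11, 12, 14 or 15 (16.0% to 17.9%), and 2 without WT mouse 832 (9.32%). KO minus WT on control diet, 1 of 14 was called (7.87% of all genes), Cav1 (-1.84 ± 0.50, adjusted p = 0.0224 by edgeR), with 3 called without KO mouse 11 or 12 and 2 without WT mouse 841 or KO mouse 13, 14 or 15. On HFD in KO, edgeR called 0 of 14 (0.0155% of all genes called, 0 at unadjusted p < 0.05, DESeq2 0 and limma 0).

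Of 17 NF-κB response genes 15 were tested, and 7 of 15 were lower with Pio in WT on control diet by edgeR (3.91% of all genes called), with a list median of -0.82. Ccl2 changed by -2.76 ± 0.69 (adjusted p = 0.0164), Relb by -2.07 ± 0.47 (adjusted p = 0.00950), Cxcl10 by -1.87 ± 0.49 (adjusted p = 0.0236) and Tnfaip3 by -1.75 ± 0.45 (adjusted p = 0.0197), all by edgeR. Only 1 of 15 was called without mouse 832, and 4, 3 and 4 were called without WT mice 843, 844 and 845. Without mouse 832 the values of Cxcl10 and Tnfaip3 were -0.85 and -0.82. The calls of Ccl2 and Relb were lost without WT mouse 831 (-1.99) and 832 (-1.36). Without KO mouse 13 the count was 9, when 15.6% of all genes were called. By limma, which called 23.9% of all genes, Ccl2 (-0.0193) and Tnfaip3 (-0.24) lost their calls and Cxcl10 reversed to 0.35. Relb shows the weight of mouse 832: it stood at 14.8, 29.3, 5.68, 4.68 and 3.16 CPM in WT control (mice 831 to 835) and at 3.30, 2.76, 2.67, 3.06 and 1.89 CPM in WT Pio.

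On HFD in WT, edgeR called 0 of the 15 NF-κB genes with Pio (1.08% of all genes called, 1 at unadjusted p < 0.05, DESeq2 1 and limma 1). It called 1 without WT mouse 830 (1.41% of all genes) or KO mouse 13 (11.6%). In KO on control diet edgeR also called 0 of 15 (9.01% of all genes called, DESeq2 1 and limma 0). At unadjusted p < 0.05 there were 3 of 15, against 3577 of all 12942 genes. It called 1 without WT mouse 832 (9.32% of all genes), KO mouse 5 (4.77%) or KO mouse 11, 12, 14 or 15 (16.0% to 17.9%). On HFD in KO it called 0 of 15 (0.0155%, 1 at unadjusted p < 0.05, DESeq2 0 and limma 0). KO minus WT, the Pio effect was higher by edgeR for 3 of 15 on control diet (7.87% of all genes called), Icam1 (2.15 ± 0.50, adjusted p = 0.0107), Nfkb2 and Relb (3.12 ± 0.66, adjusted p = 0.00508), named after their values were seen. DESeq2 called 4 and limma 1 of 15. Without mouse 832 the WT part of the Relb value went from -2.07 to -1.36.

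Marker sums of other cell types were read beside Gprc5b, and their part in its level was not tested. The sum of 5 adipocyte markers, 2 of them tested, was 14.4, 19.6, 18.8 and 17.9 CPM in the WT control, Pio, HFD and HFD-Pio groups. Of this, Adrb3 made up 14.3, 16.4, 18.6 and 16.8 CPM. The other 4 markers summed to 0.0889, 3.18, 0.154 and 1.16 CPM in WT and to 0.626, 0.862, 0.856 and 0.438 CPM in KO. Nearly all of the WT sum with Pio was Retn, at 0.0449, 3.10, 0.0849 and 1.07 CPM in the 4 WT groups. Lep was 0 in all WT control mice. The sum of 6 endothelial markers, led by Stab2, was 200, 213, 188 and 194 CPM in the same WT groups and 260, 259, 303 and 293 CPM in KO. The 6 stellate markers, led by Dcn, summed to 257, 261, 206 and 228 CPM in WT and to 288, 256, 307 and 283 CPM in KO. The 6 Kupffer markers, led by Cd5l, summed to 336, 274, 299 and 233 CPM in WT and to 293, 273, 393 and 321 CPM in KO. The 5 blood markers, led in WT by Hbb-bs, summed to 1044, 662, 868.3 and 635 CPM in WT and to 213, 298, 305 and 313 CPM in KO. In bulk tissue, fewer expressing cells and less RNA per cell cannot be told apart.

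The promoter of Gprc5b is shown because PPARγ acts through sites in DNA. Its window ran from 250 bases before to 50 after the annotated gene start (chr7:118995162-118995461, minus strand, GRCm38.p6, from the NCBI RefSeq annotation). It had 66.3% G and C, against a median of 52.7% over 32851 promoters. The GC box, GGGCGG (reading CCGCCC on the reverse strand), was present at bases 197 and 212, as it is in 35.7% of promoters. The letters of the nuclear receptor core site AGGTCA (reading TGACCT on the reverse strand), found in 16.3% of promoters, were not in this window, and neither were AGGTCANAGGTCA (0.0396%), GGGTCA (13.7%), AGTTCA (14.0%) or CCAAT (37.4%). The Cd36 window (chr5:17835847-17836146, minus strand) held AGGTCA on the reverse strand at base 23, CCAAT at base 56 and GGGCGG at bases 142 and 158. Of the 7 most like genes with a promoter entry only Cd36 held AGGTCA, and Cidec, Osbpl3, Sdcbp2, Gal3st1, Mogat1 and Bhlhb9 did not. A match describes letters only. These matches are shown in capitals.

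Gprc5b: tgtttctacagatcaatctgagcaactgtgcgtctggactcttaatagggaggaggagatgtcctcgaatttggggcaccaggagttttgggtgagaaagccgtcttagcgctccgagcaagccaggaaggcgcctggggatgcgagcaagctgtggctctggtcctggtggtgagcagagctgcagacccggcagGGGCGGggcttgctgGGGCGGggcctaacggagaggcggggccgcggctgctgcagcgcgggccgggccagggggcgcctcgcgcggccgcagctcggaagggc

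Cd36: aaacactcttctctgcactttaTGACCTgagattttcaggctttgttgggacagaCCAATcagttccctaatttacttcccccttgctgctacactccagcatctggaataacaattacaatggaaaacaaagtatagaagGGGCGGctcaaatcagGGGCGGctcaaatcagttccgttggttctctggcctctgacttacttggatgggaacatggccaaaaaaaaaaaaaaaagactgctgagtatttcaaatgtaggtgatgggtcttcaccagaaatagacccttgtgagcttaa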

How the data were processed

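The authors deposited raw gene counts in 1 table per genotype. Their notes name STAR 2.0.4b and featureCounts 1.4.5 on GRCm38 (Ensembl 76), from poly-A RNA. The tables were joined by Ensembl identifier, with 0 unmatched sample columns: 40594 genes, less 355 ribosomal RNA genes. Genes needed 1 CPM or more in at least 5 mice, which left 12942 and set aside 27297. Fits used edgeR 4.0.16 (R 4.3.3) with TMM factors, 1 model of 8 groups, robust quasi-likelihood tests and Benjamini-Hochberg adjusted p of at most 0.05 across all tested genes. CPM values use TMM-scaled library sizes. Correlations used log2 CPM with prior count 2. Exon lengths came from GENCODE M21.

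Alternatives were RLE factors, limma 3.58.1 with sample weights, DESeq2 1.42.0, no filter, each genotype alone, each mouse left out, Spearman correlation, prior count 0.5 and deviations from group means. Of these, limma with sample weights was the method of the study itself, in an earlier version, so the edgeR calls given here depart from its pipeline. In each list fold changes are given for the genes called with the largest values, up to 4, and other called genes are named where stated. Gprc5b and the gene lists were chosen with earlier results of these data known. Correlations and figures were made in Python 3.11.15 (scipy 1.17.1, numpy 2.4.6, pandas 2.3.3, matplotlib 3.10.9).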

Additional observations from a re-analysis of the deposited data

Results flagged for a closer look

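Within a group of 5 mice, 1 mouse was set apart when its gap to the next mouse was more than 0.71 of the range of the group. The genes looked at, in CPM, were Gprc5b, Gprc5c, Cidec, Cd36, Osbpl3, Pparg and Serpine2. Each gene in each of the 8 groups was 1 case, and 11 of 56 cases were flagged. Chance flags about 1 in 20 independent cases. These share mice, and Cidec, Cd36, Osbpl3 and Serpine2 were chosen by correlation with Gprc5b, so the 11 are not set against that rate. For Gprc5b they were WT control mouse 832 (gap share 0.748, 6.52 CPM) and KO control mouse 5 (0.857, 1.01 CPM). For Cidec they were WT control mouse 832 (0.928) and KO HFD-Pio mouse 20 (0.821). For Cd36 they were WT Pio mouse 845 (0.745), KO control mouse 5 (0.83) and KO HFD mouse 9 (0.789). For Osbpl3 they were WT control mouse 832 (0.89), KO control mouse 5 (0.987), KO Pio mouse 12 (0.861) and KO HFD mouse 9 (0.825).

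The Pio effect differed between genotypes (KO minus WT, log2) on control diet for Pparg by -1.21, Cidec -2.57, Cd36 -1.96, Osbpl3 -3.26, Kbtbd11 -1.82, Sdcbp2 -4.61, B430212C06Rik -4.15, Mogat1 -3.06 and Bhlhb9 -2.70. On HFD it differed for Cidec by -2.81, Kbtbd11 -2.94 and Bhlhb9 -2.77. On control diet, without KO mouse 5, Osbpl3 was -2.11 and Cd36 -1.48, and both lost their calls. Leaving out 1 mouse also lost the call of Cd36 (without WT mouse 845), Mogat1 (KO mouse 2) and Kbtbd11 (WT mouse 831, 833, 834 or 845 or KO mouse 5), and on HFD that of Cidec (WT mouse 826, 828, 830 or 837 or KO mouse 19). The Kbtbd11 call on control diet was also lost without the filter on low counts. Without WT mouse 832, Cidec on control diet was -3.51, Osbpl3 -4.41 and Sdcbp2 -5.68, and without KO mouse 13 Kbtbd11 was -2.52. All of these except Pparg belong to genes chosen for following Gprc5b in the same WT mice. That choice favours a large WT Pio rise and so a negative difference, so these values and calls are a description only. Sdcbp2, B430212C06Rik and Mogat1 also had at most 11 counts in any KO mouse, so nothing is read from their differences.

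KO Pio mouse 13 had a hepatocyte marker sum of 36179 CPM, against 103527 to 136824 in the other 4 mice of its group. Its pancreatic acinar sum was 141 CPM against 6.57 to 11.5, its adipocyte sum 42.2 against 8.30 to 14.7, and its ribosomal RNA share 0.0617% against 0.458% to 0.727%. KO HFD mouse 10 had an acinar sum of 669 CPM against 5.82 to 28.5 in its group, and WT HFD mouse 829 had a ribosomal RNA share of 0.0647% against 0.163% to 0.535%.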

How the results depend on the processing

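Fold changes and counts of calls were recomputed with RLE factors, limma, DESeq2, no filter and each mouse left out, and those within 1 genotype also with each genotype alone. WT correlations were recomputed with each WT mouse left out, by Spearman, with another prior count and on deviations, and KO correlations without mouse 13, without the 2 farthest mice and on deviations. Called values of named genes were kept in 65 of 65 cases by DESeq2 and with RLE factors, 60 by limma (4 lost, 1 reversed) and 54 without the filter (11 lost). With each genotype alone 37 of 44 were kept, and the 7 lost were all in KO, where 0 of 12942 genes were called between Pio and control (9.01% in the joint fit). The cause of any change was not tested. No paired analysis was possible because replicate numbers are mouse numbers that are not shared between groups.

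By limma, Gprc5b with Pio on control diet was 4.88 in WT and -4.57 for KO minus WT. Gprc5c with Pio on control diet was -0.53 in WT without the filter, no longer called, and reversed to -0.0522 in KO by limma. By DESeq2 (0.56) and limma (0.50) its KO minus WT difference was called, and by limma (0.57) its WT diet difference. By limma in WT, Cxcl10 reversed to 0.35, and Ccl2 (-0.0193) and Tnfaip3 (-0.24) lost their calls. By limma in KO on control diet, Flot1 (0.24) and Rarg (0.26) lost theirs. Pparg with Pio on control diet was called by limma in WT (0.855) and in KO (-0.76), and by DESeq2 in KO (-0.67).

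In WT on control diet limma called 23.9% of all genes and edgeR 3.91%. On HFD in WT limma called 8.4% and DESeq2 2.78%. In KO on control diet RLE factors gave 10.3%, limma 9.4% and DESeq2 11%. KO minus WT on control diet limma called 15.4% and DESeq2 10.8%. Without the filter 1.13% of 27839 genes were called in WT and 2.94% in KO on control diet. With WT alone 7.16% were called on control diet. PPARG targets with Pio on control diet: 15 called in WT by limma, and 0 in KO with each genotype alone. Retinoid response genes: 3 in WT by limma, 0 without the filter and 2 with each genotype alone, 0 in KO without the filter and 0 with each genotype alone, and 2 for KO minus WT by DESeq2. Rafts and Fyn: in KO 2 with RLE factors, 0 by limma, 2 by DESeq2 and 0 with each genotype alone, and for KO minus WT 3 by limma and 2 by DESeq2. NF-κB response genes: 1 by limma and 1 by DESeq2 on HFD in WT, 1 by DESeq2 in KO on control diet, and 1 by limma for KO minus WT. Neighbours: 2 by limma in WT, and in KO 4 by limma (9.4% of all genes called), 0 without the filter and 0 with each genotype alone. Of the 10 most like genes 4 were shared by Spearman correlation and 1 on deviations from group means.

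Leaving out 1 mouse, Gprc5b with Pio in WT ran from 3.78 to 4.76 on control diet and from 4.42 to 4.88 on HFD, and in KO from 0.13 to 0.55 and from -0.05 to 0.27. HFD against control gave -1.26 to -0.20 in WT and 0.08 to 0.45 in KO. Among Pio-fed mice it gave -0.55 to -0.22 in WT and -0.14 to 0.17 in KO. The diet difference of the Pio effect ran from -0.20 to 0.85 in WT and from -0.45 to 0.01 in KO. KO minus WT ran from -4.52 to -3.48 on control diet and from -4.79 to -4.30 on HFD.

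Gprc5c with Pio ran from -0.63 to -0.41 and from -0.0217 to 0.164 in WT, and from -0.0673 to 0.0840 and from -0.0672 to 0.00999 in KO, for control diet and HFD. Pparg in WT on HFD ran from -0.18 to 0.0037.

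Counts with 1 mouse left out, with Pio on control diet in WT, were, with 15.6% of all genes called when KO mouse 13 is left out, 7 to 14 PPARG targets, 0 to 2 retinoid, 1 to 4 raft, 1 to 9 NF-κB and 0 to 0 neighbour genes. In KO they were 0 to 4 PPARG targets, 0 to 4 retinoid, 0 to 3 raft, 0 to 1 NF-κB and 0 to 4 neighbour genes. On HFD in WT they were 6 to 9 PPARG targets, 0 to 1 raft and 0 to 1 NF-κB genes. KO minus WT on control diet gave 6 to 9, 1 to 2, 1 to 3 and 3 to 4 for the first 4 lists. Of the 10 most like genes 7 to 10 were shared.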
